A study of Arabidopsis thaliana with 35 samples.

Results

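The plasma membrane syntaxins of the SYP1 family are 8 genes of Arabidopsis thaliana, chosen by their gene identifiers out of the 66429 features counted in mature pollen: SYP122 (AT3G52400), SYP121 (AT3G11820), SYP111 (AT1G08560), SYP123 (AT4G03330), SYP124 (AT1G61290), SYP125 (AT1G11250), SYP131 (AT3G03800) and SYP132 (AT5G08080). All 8 were in the count tables. SYP122 led the choice because its level differs between the genotypes of these same libraries. Its values are therefore given as a description with no test. Of the other 7, the 4 with enough counts were tested, and the 3 near 0 only in a fit with no filter on low counts. SYP122 was almost silent in wild-type and sln pollen, at about 0.1 CPM (the count relative to the scaled size of its library), and stood at 7.38 to 15.4 CPM in the other 5 mutants. The 3 abundant pollen syntaxins, SYP131, SYP124 and SYP125, differed from wild-type by at most 0.13 on the log2 scale in any mutant, and none of those differences passed the test.

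Syntaxins are membrane-anchored SNARE proteins that sit on a target membrane and pair with SNAREs of a vesicle and with SNAP25-type or Qb and Qc SNAREs, so that the membranes fuse and cargo is secreted. Sec1/Munc18 proteins bind syntaxins and help the complex form, and the exocyst tethers the vesicle beforehand. In leaves SYP121, also called PEN1, and its close relative SYP122 serve secretion to the cell wall and resistance to fungal entry, partnered by SNAP33 and by VAMP721 and VAMP722. SYP111, also called KNOLLE, acts at the cell plate of dividing cells, SYP123 acts in root hairs, and SYP132 is found in most tissues. SYP124, SYP125 and SYP131 are known as pollen syntaxins, and SYP124 and SYP125 serve the growing pollen tube.

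The labels name 7 genotypes of ecotype Col0 with 5 libraries each: wild-type, mbd5 mbd6, sln, acd15.5, acd21.4, acd15.5 acd21.4 and acd15.5 acd21.4 sln, without naming alleles. MBD5 and MBD6 bind methylated CG sites in DNA, SLN is their partner with a J-domain, and ACD15.5 and ACD21.4 are small proteins with an alpha-crystallin domain. The series title links these proteins to the silencing of genes and transposable elements. Poly(A) RNA was sequenced, and 2 libraries of each genotype were made in batch 1 and 3 in batch 2. Replicates carry numbers but no statement that they came from separate plants, so the spread between them may be partly technical.

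Libraries held 9267958 to 22208090 counts (median 13847738). MBD6 transcripts fell from 0.815 ± 0.147 CPM in wild-type to 0.0221 CPM in mbd5 mbd6 (SD, n = 5, adjusted p = 2.82e-07). SLN transcripts fell from 4.51 ± 0.286 CPM to 0.259 in sln and 0.246 in acd15.5 acd21.4 sln (adjusted p = 5.97e-19 and 3.17e-18). MBD5, ACD15.5 and ACD21.4 had at most 10 counts in all 5 libraries of any genotype, wild-type included, and could not check the labels. Markers of the pollen vegetative cell (10 genes counted of a list of 11) summed to 17970 to 30960 CPM and markers of sperm cells (6 genes counted of a list of 7) to 857.5 to 1102 CPM, and no listed gene of either kind that was counted was at 0 in any genotype. Of 6 sperm cell markers tested 0 to 2 were called per comparison and of 10 vegetative cell markers 0 to 1, where 4.53 to 6.31% of all tested features were. Calls among these markers were small, 0.17 to 0.42 in size on the log2 scale (adjusted p = 2.25e-05 to 0.0376): DMP9 rose in mbd5 mbd6, sln and acd15.5 acd21.4, BUPS1 rose in mbd5 mbd6, MYB97 rose and GEX1 fell in sln, and HTR10 rose and HAP2 fell in acd15.5 acd21.4 sln. The call of GEX1 was lost without any 1 of wild-type replicates 1 to 4 and sln replicates 2, 4 and 5, that of MYB97 without wild-type replicate 2 or sln replicate 4 or 5, that of HTR10 without wild-type or acd15.5 acd21.4 sln replicate 4 or 5, and that of HAP2 without wild-type replicate 4 or 5 or acd15.5 acd21.4 sln replicate 1 or 3 (adjusted p = 0.0502 to 0.225). Each of these calls other than that of BUPS1 was also lost in at least 1 of the batches taken alone (0.0921 to 0.752). The call of HAP2 was lost with no filter (0.127) and with the share of reads outside features as a covariate (0.0593). Its log2 difference in acd15.5 acd21.4 sln was -0.145 without the 5 libraries that stood apart, described below, against -0.199 with them. With only the groups compared the calls of HAP2, GEX1 and HTR10 were lost (0.133, 0.106 and 0.232), and with no batch term those of HAP2, GEX1, MYB97 and DMP9 (0.0607 to 0.225). The part of cell makeup in the results below was not tested. Photosynthesis genes, 12 markers of green tissue, summed to 22.2 to 62.6 CPM in wild-type and to between 22.4 and 60.5 CPM in the mutants, and none of the 12 was at 0. Principal components were taken from log2 CPM of the features that passed the filter on low counts, after genotype and batch means were removed. They describe the spread of libraries around their own genotype. On one of the leading components 5 libraries lay more than 4 median absolute deviations from the median. These were mbd5 mbd6 replicate 2 and acd15.5 acd21.4 sln replicates 1 to 4. Without these 5 libraries acd15.5 acd21.4 sln rests on replicate 5 alone, so for that genotype only sizes of differences are given. Its log2 differences were then -4.623 for SLN, 0.261 for HTR10 and -0.467 for the photosynthesis gene RBCS3B, against -4.229, 0.185 and -0.526. MBD6 in mbd5 mbd6 kept its call (log2 -4.24, adjusted p = 2.48e-06, edgeR). Further values without these libraries are given beside their results.

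The 300 bases upstream of 5 genes are shown with their CG sites, since CG is the site whose methylation MBD5 and MBD6 recognise. SYP122 stands beside SYP121, its relative that stayed near 0, SYP131, the most abundant syntaxin, and AT1G67750 and AT2G11170, which followed SYP122 across the genotypes. Sequences are from RefSeq assembly TAIR10.1, 5′ to 3′ on the gene's strand and ending at the base before the annotated start. Capitals mark each CG.
SYP122: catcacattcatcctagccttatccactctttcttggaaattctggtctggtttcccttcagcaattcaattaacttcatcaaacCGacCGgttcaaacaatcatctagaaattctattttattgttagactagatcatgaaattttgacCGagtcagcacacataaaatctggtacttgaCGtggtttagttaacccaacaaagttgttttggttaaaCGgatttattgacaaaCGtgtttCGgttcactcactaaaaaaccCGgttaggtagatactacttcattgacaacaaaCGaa
SYP121: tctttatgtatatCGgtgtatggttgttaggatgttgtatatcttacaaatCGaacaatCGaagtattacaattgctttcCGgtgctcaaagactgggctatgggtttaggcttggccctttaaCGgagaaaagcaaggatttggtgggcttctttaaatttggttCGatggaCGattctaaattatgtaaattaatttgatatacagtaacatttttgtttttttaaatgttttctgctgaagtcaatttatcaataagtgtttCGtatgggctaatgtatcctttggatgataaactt
SYP131: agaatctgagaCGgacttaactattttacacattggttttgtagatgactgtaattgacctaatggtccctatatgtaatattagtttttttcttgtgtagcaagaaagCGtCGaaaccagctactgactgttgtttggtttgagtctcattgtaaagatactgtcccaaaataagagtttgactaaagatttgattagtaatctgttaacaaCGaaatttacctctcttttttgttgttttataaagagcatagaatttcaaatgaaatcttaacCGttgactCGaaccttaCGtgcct
AT1G67750: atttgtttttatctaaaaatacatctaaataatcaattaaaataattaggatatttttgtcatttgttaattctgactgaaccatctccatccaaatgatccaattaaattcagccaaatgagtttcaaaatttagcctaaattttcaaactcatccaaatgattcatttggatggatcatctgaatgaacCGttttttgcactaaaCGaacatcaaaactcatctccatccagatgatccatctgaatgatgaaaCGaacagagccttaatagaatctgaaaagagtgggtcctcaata
AT2G11170: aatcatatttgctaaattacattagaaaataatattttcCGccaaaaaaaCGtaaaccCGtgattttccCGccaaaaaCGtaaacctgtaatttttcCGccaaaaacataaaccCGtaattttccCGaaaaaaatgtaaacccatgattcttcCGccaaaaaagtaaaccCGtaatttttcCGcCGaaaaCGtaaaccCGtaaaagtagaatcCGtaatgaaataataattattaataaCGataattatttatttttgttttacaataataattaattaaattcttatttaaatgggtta

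The SYP122 window (chr3:19427231-19427530, minus strand) held 9 CG, as many or more than which were found in 24.6% of the 27443 upstream windows of protein-coding genes, where the median was 6. The SYP121 window (chr3:3731252-3731551, minus strand) held 8 and the SYP131 window (chr3:968750-969049, plus strand) 7. AT1G67750 had 3 (chr1:25401214-25401513, plus strand) and AT2G11170 had 16 (chr2:4438036-4438335, minus strand), so the windows of features that moved together ranged from few to many CG. Within the transcribed span SYP122 was denser, with 84 CG in 1599 bases or 52.5 per kb, against a median of 25.1 per kb, and 3.39% of genes were as dense. SYP121 had 40.1 CG per kb, AT1G67750 had 39.9, SYP131 had 20.4 and AT2G11170 had 19.4. The W-box core TTGAC, a motif bound by WRKY factors of the defence response, occurred 4 times in the SYP122 window when both strands were read, and 1 of the 4 shared a base with a CG. Of all windows, 50.4% held at least 1 such core and 1.16% held 4 or more. The SYP121 window held 1, those of SYP131 and SYP125 held 3 each, and those of SYP111, SYP123, SYP124, SYP132, AT1G67750 and AT2G11170 held none. These are letters in a window, and methylation was not measured in these libraries.

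SYP122 lies on chromosome 3, 19425632 to 19427230 in TAIR10.1, on the minus strand. In wild-type pollen its 5 libraries held 1, 3, 0, 2 and 1 counts (replicates 1 to 5), which is 0.0787, 0.252, 0, 0.126 and 0.0705 CPM and a mean of 0.105 ± 0.0934 CPM (SD, n = 5). In sln they held 1, 0, 3, 1 and 4 counts, a mean of 0.0991 ± 0.0839 CPM. Both genotypes had a library without a SYP122 count, and their ranges overlapped. In RNA of whole pollen, expression in few grains or cells and low expression in many cannot be told apart. With 9 counts in sln and 7 in wild-type over 5 libraries each, the ratio of summed counts per unscaled library total was 1.12 (exact 95% counting interval 0.371 to 3.54). Mean CPM, which uses scaled library sizes, was slightly lower in sln than in wild-type. A difference of up to about the ends of that interval was not detectable at this depth.

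In mbd5 mbd6 SYP122 stood at 5.74, 6.63, 7.02, 8.42 and 9.10 CPM, a mean of 7.38 ± 1.36 CPM. The 5 libraries held 68 to 165 counts each, and the lowest lay above the highest wild-type library (0.252 CPM). The ratio to wild-type of summed counts per unscaled library total was 73.2 (95% counting interval 35.3 to 183). In acd15.5 the values were 12.2, 12.5, 11.7, 14.1 and 13.6 CPM, a mean of 12.8 ± 1.02 CPM and a ratio of 129 (62.5 to 322). The acd21.4 libraries gave 11.7, 11.9, 13.8, 16.0 and 14.2 CPM, a mean of 13.5 ± 1.79 CPM and a ratio of 125 (60.6 to 313). The 2 single acd mutants thus held SYP122 at nearly the same level, with overlapping ranges.

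Where both ACD genes were mutated, SYP122 did not stand at the sum of the log2 differences of the single mutants. The acd15.5 acd21.4 libraries had 13.9, 15.7, 13.4, 14.8 and 19.3 CPM, a mean of 15.4 ± 2.34 CPM and a ratio to wild-type of 153 (74.0 to 381). The fitted log2 differences from wild-type were 6.82 ± 0.63 in acd15.5, 6.90 ± 0.63 in acd21.4 and 7.08 ± 0.63 in acd15.5 acd21.4 (± SE), and the departure from additive log2 effects was -6.64 ± 0.64. All of these rest on the same 7 wild-type counts. SYP122 was chosen for its values over these genotypes, so the departure is a description and no test of how the 2 genes act together. In acd15.5 acd21.4 sln the values were 10.5, 9.64, 10.5, 9.82 and 13.9 CPM, a mean of 10.9 ± 1.74 CPM, a ratio of 105 (50.6 to 261) and a log2 difference of 6.62 ± 0.63. The corresponding difference was 6.05 ± 0.63 in mbd5 mbd6 and 0.02 ± 0.84 in sln, and the departure of acd15.5 acd21.4 sln from adding the log2 differences of sln and acd15.5 acd21.4 was -0.49 ± 0.84. Without the 5 libraries that stood apart the difference was 6.07 in mbd5 mbd6 and 6.88 in acd15.5 acd21.4 sln, which then rests on 1 library.

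**Figure D1:**
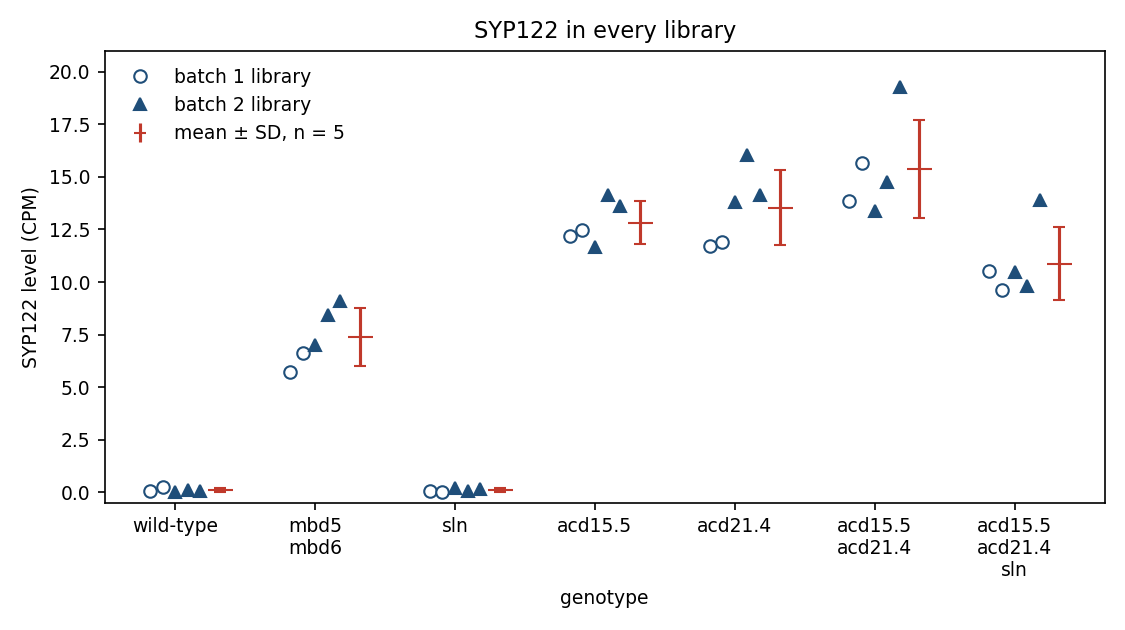
SYP122 level in CPM (linear axis) in each of the 35 libraries by genotype, with open circles for batch 1, filled triangles for batch 2 and the mean ± SD of 5 libraries in red. All wild-type and sln libraries lie at or below 0.252 CPM, and the lowest library of the other 5 genotypes is at 5.74 CPM.

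Ordered by mean, SYP122 was highest in acd15.5 acd21.4, followed by acd21.4, acd15.5, acd15.5 acd21.4 sln, mbd5 mbd6, wild-type and sln. The ranges of neighbours overlapped except at 2 steps. The acd15.5 acd21.4 sln libraries (9.64 to 13.9 CPM) lay above all mbd5 mbd6 libraries (5.74 to 9.10 CPM), and mbd5 mbd6 lay above wild-type. The order within batches was close to this one. In batch 1 the means were 14.8 CPM in acd15.5 acd21.4, 12.3 in acd15.5, 11.8 in acd21.4, 10.1 in acd15.5 acd21.4 sln and 6.19 in mbd5 mbd6, against 0.165 in wild-type and 0.0328 in sln. In batch 2 they were 15.8, 13.1, 14.7, 11.4 and 8.18 CPM in the same order, against 0.0656 in wild-type and 0.143 in sln. The ratios to wild-type were 37.9 (14.5 to 141) in batch 1 and 120 (40.6 to 583) in batch 2 for mbd5 mbd6, and 91.4 and 232 for acd15.5 acd21.4. They rest on 4 wild-type counts in batch 1 and 3 in batch 2.

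Beside SYP122, the family in pollen was made up almost entirely of 3 genes. Levels are compared between genes as CPM per kb of annotated exon. SYP131 held 57.3 to 62.7% of the summed level of the 8 genes over the 35 libraries, SYP124 25.5 to 29.4% and SYP125 10.5 to 13.3%. Together these 3 held 99.7% in wild-type and 98.8% in acd15.5 acd21.4, the genotype with the lowest share. SYP122 held 0.00589 ± 0.00507% in wild-type, 0.425 ± 0.0917% in mbd5 mbd6 and 0.887 ± 0.141% in acd15.5 acd21.4 (SD, n = 5). Its level per kb was above that of SYP132 in all 25 libraries of the 5 genotypes with raised SYP122, from 1.01 times in an mbd5 mbd6 library to 3.63 times in an acd15.5 acd21.4 library, and below it in all 10 wild-type and sln libraries. The 7 other genes summed to 1255 ± 58.2 CPM per kb in wild-type and to means of 1168 to 1261 in the mutants, and they stayed within 1045 to 1318 CPM per kb in every library.

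**Figure D2:**
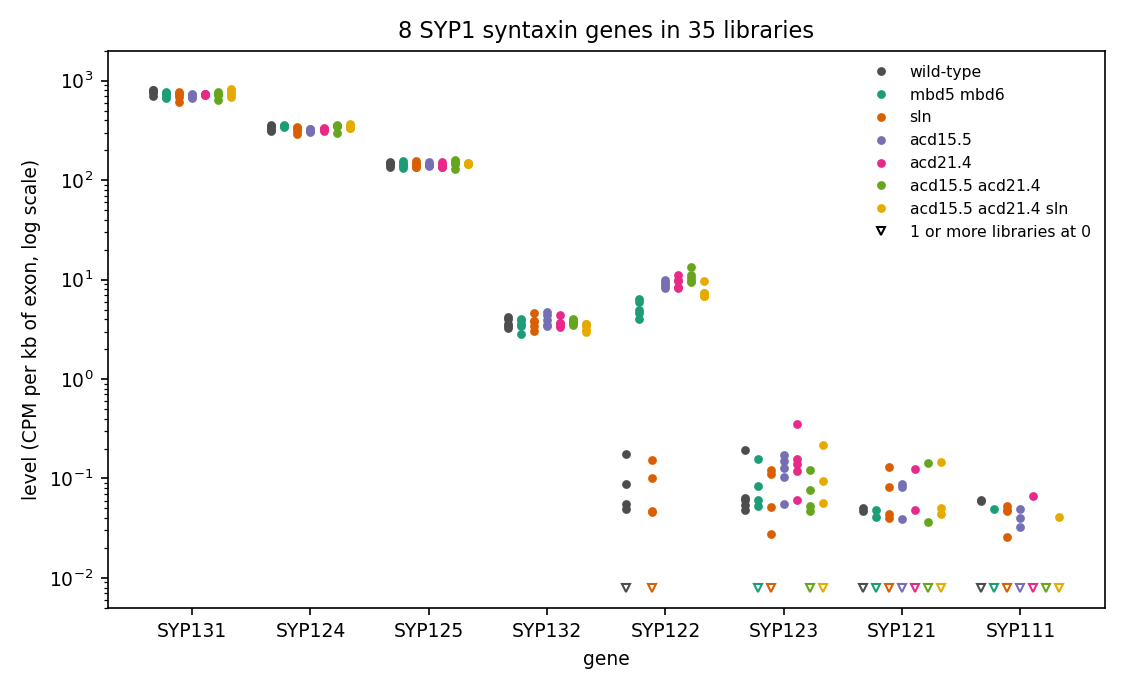
Level of the 8 SYP1 genes in each library as CPM per kb of exon (log axis), coloured by genotype, with an open triangle at the bottom where 1 or more libraries of that genotype had no count. SYP131, SYP124 and SYP125 form bands above 100 in every genotype, whereas SYP122 lies between 4.02 and 13.5 in 5 genotypes and at no more than 0.176 in wild-type and sln.

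Tests of the 7 other syntaxins used the fit of all 12106 features that passed the filter on low counts. SYP124, SYP125, SYP131 and SYP132 passed it, with 0 of 24 calls against wild-type at an adjusted p under 0.05 (edgeR, n = 5). Of all tested features, 5.48% were called in mbd5 mbd6, 6.31% in sln, 4.58% in acd15.5, 4.53% in acd21.4, 4.97% in acd15.5 acd21.4 and 6.21% in acd15.5 acd21.4 sln, so that 0 calls among 4 genes is near that background. The median log2 difference of all features lay between -0.003 and 0.012 in the 6 comparisons. At an unadjusted p under 0.05 there were 2 of 24, both for SYP131, and DESeq2 also called 0 of 24. The 6 comparisons share the wild-type libraries.

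SYP131 (chromosome 3, 969050 to 971691) was the most abundant syntaxin. Its wild-type libraries stood at 1061, 1095, 1105, 962 and 1048 CPM, a mean of 1054 ± 56.6. In sln they stood at 936.5, 1047, 998, 1008 and 834 CPM and in acd15.5 at 973, 978.5, 907, 1004 and 942 CPM, in both cases overlapping with wild-type. The log2 differences were -0.13 ± 0.06 in each (SE, adjusted p = 0.171 and 0.245), with 95% intervals of -0.24 to -0.01 and -0.25 to -0.02. In the other 4 mutants they lay between -0.10 and -0.01.

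SYP124 (chromosome 1, 22604777 to 22606385) had 429 ± 24.6 CPM in wild-type, in libraries of 409, 449, 427, 401 and 458 CPM. Its means in the mutants ran from 408 ± 12.7 in acd15.5 to 449 ± 7.12 CPM in mbd5 mbd6, and its log2 differences from -0.07 to 0.07 (adjusted p = 0.478 to 0.879). All ranges overlapped with that of wild-type. SYP125 (chromosome 1, 3768521 to 3770102) had 219 ± 9.27 CPM in wild-type, in libraries of 229, 220, 214, 205 and 225 CPM. Its mutant means ran from 213 to 220 CPM and its log2 differences from -0.04 to 0.01 (adjusted p = 0.781 to 0.974). The 95% intervals of the 12 differences of these 2 genes spanned -0.16 to 0.16, so for SYP124 and SYP125 a change in either direction beyond that size lay outside every interval. The coding sequences of SYP124 and SYP125 are 82.7% identical over aligned bases, the highest of the 28 pairs, with a longest shared run of 35 bases. How the authors' counting treated reads that match both is not given in the sources used here, so the split between this pair carries that uncertainty. SYP122 shares at most 27 consecutive coding bases with another member (SYP111) and 18 with SYP121.

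SYP132 (chromosome 5, 2588160 to 2591406) was present at 5.98, 6.21, 7.25, 5.68 and 6.97 CPM in wild-type, a mean of 6.42 ± 0.668. Its mutant means ran from 5.75 ± 0.442 in acd15.5 acd21.4 sln to 6.91 ± 0.954 CPM in acd15.5. The log2 differences were -0.15 to 0.11 (adjusted p = 0.534 to 0.985), with intervals between -0.38 and 0.32. Each library held 48 to 224 counts of SYP132, and its intervals were wider than those of the abundant genes.

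**Figure D3:**
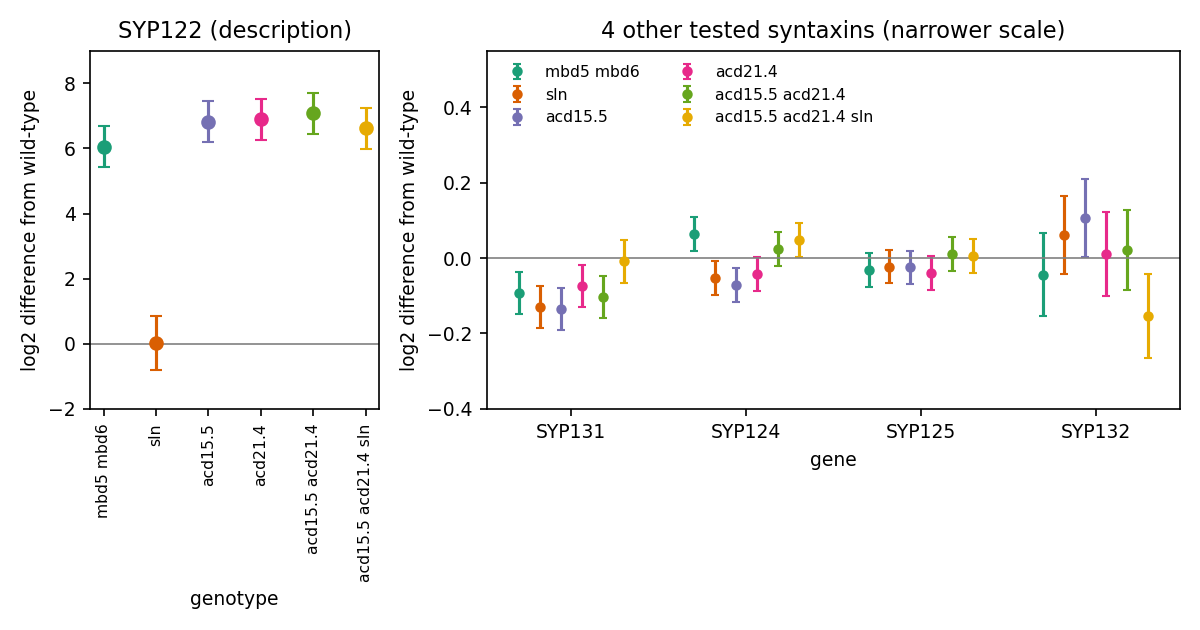
Fitted log2 difference from wild-type ± SE in the 6 mutants, with SYP122 in one panel and the 4 other syntaxins that could be tested in the other, on a narrower axis. SYP122 lies between 6.05 and 7.08 in 5 mutants and at 0.02 in sln, while the other genes lie between -0.15 and 0.11.

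SYP123, SYP121 and SYP111 did not pass the filter and stayed near 0 in every genotype. The root hair syntaxin SYP123 (chromosome 4, 1466284 to 1467750) had 58 counts in the 35 libraries together and 5 at most in a library. SYP121 (chromosome 3, 3729305 to 3731251), the closest counterpart of SYP122 in leaf defence, had 31 counts, with no count in 17 libraries and 6 at most. SYP111 (chromosome 1, 2709525 to 2711000) had 12 counts, no more than 1 in a library. Summed over 5 libraries, SYP121 had 2 counts in both wild-type and mbd5 mbd6, 10 in sln, 5 in acd15.5 and 4 in each of acd21.4, acd15.5 acd21.4 and acd15.5 acd21.4 sln. In a fit without the filter these 3 genes had no call in any mutant, with unadjusted p from 0.0642 upward (SYP121 in sln, adjusted p = 0.527), and at this depth a difference of a few counts was not detectable.

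The 4 syntaxins that passed the filter were also tested for any difference among the 7 genotypes, for non-additive effects and for batch. SYP123, SYP121 and SYP111 were not tested for these terms in the main fit. None of the 4 was called for any genotype difference, where 10.4% of all features were. The smallest adjusted p was that of SYP124 (0.129). Neither interaction was called, against 3.3% of features for acd15.5 by acd21.4 and 5.57% for sln by acd15.5 acd21.4. The smallest adjusted p among these terms was that of SYP131 for sln by acd15.5 acd21.4, 0.22 ± 0.08 (adjusted p = 0.0862). The SYP132 term was -0.24 ± 0.15 (0.420). The SYP131 term passed with DESeq2 (0.0405) and without acd15.5 acd21.4 sln replicate 5 (0.0365). Without the 5 libraries that stood apart the term was 0.07, and acd15.5 acd21.4 sln then rested on replicate 5 alone. SYP124 passed the test of any genotype difference with DESeq2 (adjusted p = 0.0356) and without acd15.5 acd21.4 replicate 4 (0.0429). Batch was called for 17.6% of features and for 1 syntaxin, SYP125, which was lower in batch 2 by a log2 difference of -0.08 ± 0.02 (adjusted p = 0.0177).

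Proteins that work with the syntaxins were read as lists chosen for the SNARE complex and for tethering. Of all tested features 4.53 to 6.31% were called per comparison, which is the background for calls in these lists. Of 20 SNARE partners and Sec1/Munc18 proteins 17 were tested, and their median log2 difference was between -0.06 and -0.03 in the 6 comparisons. The Sec1/Munc18 gene KEU stood at 329.5 ± 11.6 CPM in wild-type and at means of 312 to 324 CPM in the mutants, and SEC1A at 256 ± 7.64 and 243 to 258 CPM. SNAP30, a SNAP25-type SNARE, had 191 ± 21.3 CPM in wild-type and means of 176 to 187 CPM in the mutants. The Qc SNARE SYP72 had 393 ± 12.7 CPM in wild-type and means of 360 to 369 CPM. No gene of this group was called in the mutants other than SNAP29, which fell in acd15.5 acd21.4 sln from 0.910 ± 0.351 to 0.412 ± 0.176 CPM (log2 -1.16 ± 0.38, adjusted p = 0.0392). That call was lost in each batch alone (adjusted p = 0.319 and 0.262) and with no batch term (0.0619). It was also lost without any of 7 single libraries, wild-type replicates 1, 3 and 4 and acd15.5 acd21.4 sln replicates 1, 2, 3 and 5 (0.0505 to 0.134). Without the libraries that stood apart, which left 1 acd15.5 acd21.4 sln library, the log2 difference of SNAP29 was -0.954. For any difference among the genotypes 1 of the 17 tested genes was called, where 10.4% of all tested features were.

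The leaf partners of SYP122 were low in pollen and none was called. SNAP33 had 0.748 ± 0.138 CPM in wild-type and means of 0.596 to 0.764 CPM in the mutants, with log2 differences of -0.31 to -0.01 (adjusted p of at least 0.719). VAMP721 had 0.848 ± 0.318 CPM in wild-type and 0.802 to 1.1 CPM in the mutants (adjusted p of at least 0.640), and VAMP722 had 4.59 ± 0.405 CPM in wild-type and means of 4.22 to 4.84 CPM in the mutants. The abundant vesicle SNARE was VAMP726, at 72.8 ± 8.47 CPM in wild-type and 67.6 to 71.9 CPM in the mutants, followed by VAMP725 at 20.1 ± 0.628 and 19.2 to 20.7 CPM.

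Of 12 exocyst subunits 10 were tested, with a median log2 difference between -0.02 and 0.01. SEC5A rose in acd15.5 from 5.45 to 6.90 CPM (log2 0.34 ± 0.10, adjusted p = 0.0440), and EXO70A2 fell in acd15.5 acd21.4 sln from 23.6 to 20.4 CPM (log2 -0.21 ± 0.07, adjusted p = 0.0454). SEC5A was not called in batch 1 or batch 2 alone (adjusted p = 0.831 and 0.0689), nor without any one of 8 libraries (0.0549 to 0.144), wild-type replicates 1, 2, 3 and 5 and acd15.5 replicates 2 to 5. Its call was also lost with DESeq2 (0.0996), with no filter (0.0701), with no batch term (0.0543) and with the share of reads outside features as a covariate (0.117). EXO70A2 was not called in either batch alone (0.258 and 0.393). Without the libraries that stood apart, which left 1 acd15.5 acd21.4 sln library, its log2 difference was -0.243. The call of EXO70A2 was lost in 17 of the 35 fits that left out 1 library (adjusted p = 0.05 to 0.227): any wild-type replicate, mbd5 mbd6 3 or 4, sln 2 or 3, acd15.5 1, acd21.4 2 or 4, acd15.5 acd21.4 1, 2 or 3 and acd15.5 acd21.4 sln 2 or 5. DESeq2, its size factors in edgeR, no filter, no batch term, the covariate and the fit of only the groups compared also ended the call of EXO70A2 (0.0508 to 0.253). SEC15A was called for a difference among genotypes (adjusted p = 0.0481), as were 10.4% of all tested features, and in none of the 6 comparisons.

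Genes of leaf defence, the setting in which SYP122 and SYP121 are known, were read in the same way. Of 15 such genes 2 passed the filter, too few to set a share of calls beside that of all features. The sum over the list was 7.5 to 11.7 CPM in wild-type and 4.41 to 9.48 CPM in the mutants. The antimicrobial protein gene PR5 fell, from 7.62 ± 1.27 CPM in wild-type to 5.08 ± 0.829 in sln (log2 -0.61 ± 0.14, adjusted p = 0.00290) and 4.57 ± 1.09 in acd15.5 acd21.4 sln (log2 -0.73 ± 0.15, adjusted p = 6.25e-04). The call in sln was lost in batch 1 alone (0.253), and that in acd15.5 acd21.4 sln in batch 2 alone (0.146). Without the libraries that stood apart the log2 difference of PR5 in acd15.5 acd21.4 sln was -0.486, from 1 library of that genotype. The salicylic acid synthesis gene ICS1, at 0.732 ± 0.242 CPM in wild-type and means of 0.607 to 0.777 CPM in the mutants, was not called. PR1 had 2 counts in all libraries and PAD3 none, WRKY33 had 2 to 13 counts per genotype, and PEN2 and PEN3, which act in the same entry resistance as SYP121, had 2 to 10 and 9 to 30. The photosynthesis list, a sign of leaf or anther tissue in the sample, had 1 call of 11 genes tested. The call was in acd15.5 acd21.4 sln, where 6.21% of all tested features were called. RBCS3B fell there from 21.2 to 14.8 CPM (log2 -0.53 ± 0.08, adjusted p = 1.35e-06). The median log2 difference of the 11 genes was 0.523 in sln, 0.259 in acd15.5, -0.055 in acd21.4 and -0.109 in mbd5 mbd6. It was -0.255 in acd15.5 acd21.4 and -0.332 in acd15.5 acd21.4 sln. The median of all tested features lay between -0.003 and 0.012.

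The genes beside SYP122 on chromosome 3 were examined, 5 on each side in the annotation. AT3G52390, whose start lies 374 bases beyond the 3′ end of SYP122 on the same strand, had 0.561 ± 0.222 CPM in wild-type and 0.517 to 0.757 CPM in the mutants (log2 -0.06 to 0.48, adjusted p = 0.514 to 0.993). The pseudogene AT3G52410, 1069 bases above its start, had no count in any library. OEP7, a gene for a protein of the chloroplast outer envelope, lies 2455 bases above and had 2.36 ± 0.430 CPM in wild-type and 2.07 to 2.56 CPM in the mutants (log2 -0.16 to 0.15). AT3G52360, 12573 bases below, was the abundant gene of the stretch at 273.5 ± 19.8 CPM in wild-type and 250 to 276 CPM in the mutants (log2 -0.13 to 0.02). PAD4, a defence regulator 3864 bases above, had at most 3 counts per genotype. Of the 10 neighbours 3 could be tested (AT3G52360, AT3G52390 and OEP7), with 0 of 18 calls by edgeR and 1 of 18 at an unadjusted p under 0.05 (AT3G52360 in acd15.5). The remaining 7 had at most 14 counts in any genotype. None of the 3 was called in the 5 genotypes where SYP122 was high. Of all tested features 4.53 to 6.31% were called per comparison, so 0 calls among 3 genes is near that background.

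**Figure D4:**
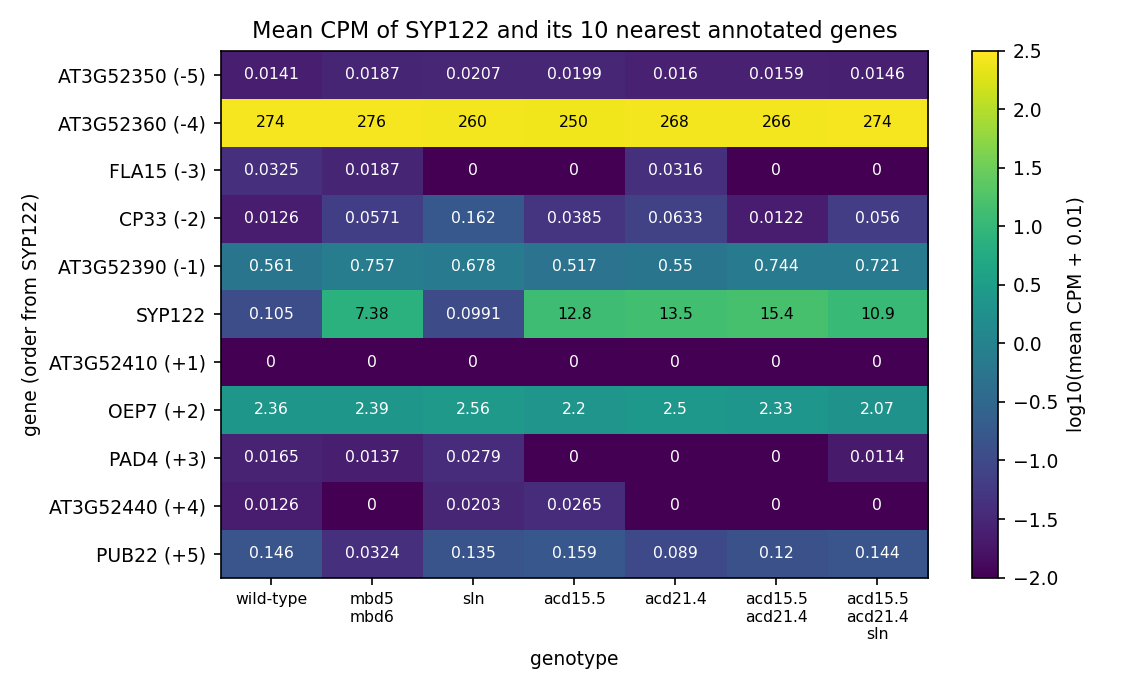
Mean CPM of SYP122 and of the 5 annotated genes on each side in the 7 genotypes, with the value in each cell and the colour on a log10 scale. SYP122 stands at 0.105 CPM in wild-type and at 7.38 or more in 5 mutants, while AT3G52360 stays at 250 to 276 CPM and AT3G52410 at 0.

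Features whose pattern over the 7 genotypes was most like that of SYP122 were ranked by Pearson's r of mean log2 CPM, among 236 tested features whose genotype means spanned at least 2 on the log2 scale. The points share libraries, and the coefficient is a description. Its value was over 0.95 for 12 of the 236 features and over 0.99 for 4. The 10 closest were novel_Chr5_noncoding_366 (r = 0.998), the transposable element AT2TE03160 (0.998), novel_Chr3_noncoding_1164 (0.995), AT1G67750 (0.991), novel_Chr2_noncoding_194 (0.988), AT3G30230 (0.984), AT1G44050 (0.981), the pseudogene AT2G11170 (0.976), novel_Chr1_noncoding_516 (0.970) and novel_Chr2_coding_69 (0.967). AT1G67750, a pectate lyase family gene, is the most abundant of them, at 4.47 ± 0.994 CPM in wild-type, 9.89 ± 0.969 in sln and 553 to 728 CPM in the other mutants. novel_Chr3_noncoding_1164 differed from SYP122 in its base level, with 66.6 ± 5.90 CPM in wild-type, 70.3 ± 6.44 in sln and 211 to 313.5 CPM in the other mutants.

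The other 8 of these features were at 0 or nearly so in wild-type. AT2TE03160 and novel_Chr5_noncoding_366 had no count in the 10 wild-type and sln libraries and reached 2.49 to 3.36 and 0.612 to 1.08 CPM in the other genotypes. AT2G11170 had no count in wild-type, 0.218 ± 0.0990 CPM in sln and 2.97 to 4.19 CPM elsewhere. AT3G30230 and AT1G44050 had no count in wild-type and 3 and 1 in sln, against 0.912 to 2.67 and 0.493 to 1.36 CPM elsewhere. novel_Chr2_noncoding_194, novel_Chr1_noncoding_516 and novel_Chr2_coding_69 had 0, 1 and 2 counts in wild-type and 4, 15 and 0 in sln, against 0.960 to 1.49, 1.21 to 1.67 and 0.578 to 2.98 CPM elsewhere. None of the other 7 syntaxins could be among the 236 features by the rule of entry. Of these, 3 did not pass the filter, and the genotype means of the other 4 spanned less than 2 on the log2 scale.

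**Figure D5:**
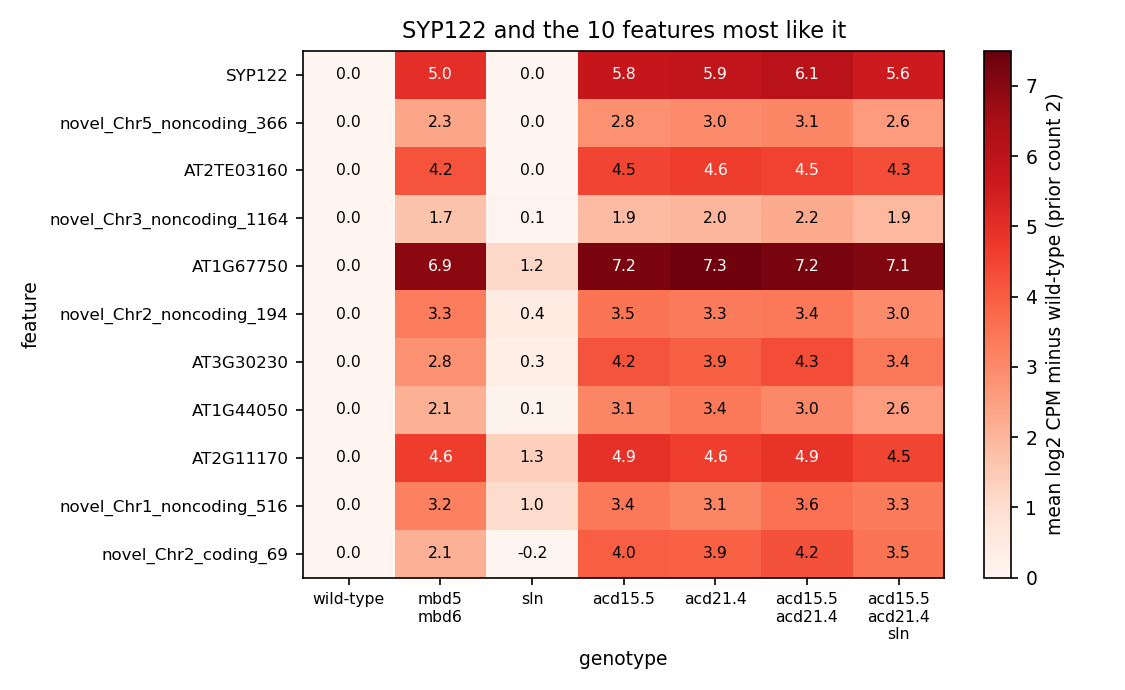
Mean log2 CPM minus wild-type (prior count 2) for SYP122 and the 10 features most like it over the 7 genotypes, with the value in each cell. The column of sln is near 0 in most features and reaches about 1 in AT1G67750, AT2G11170 and novel_Chr1_noncoding_516, while the 5 other mutants are high in every row.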

How the data were processed

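The authors deposited, per library, whole-number read counts for each feature, taken here without change. The submitters' processing notes name TAIR10 as build and HTSeq, STAR, Trim Galore and deepTools as tools. No version, strand setting or treatment of reads with several alignments is given in the sources used here, which leaves values of near-identical or overlapping genes uncertain. HTSeq's 5 summary lines stayed out of library sizes; reads in no feature were 0.217 to 0.999% of each library. No 2 replicates agreed within sampling noise (chi-square over degrees of freedom 2.70 to 26.4 in 70 pairs).

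The quasi-likelihood test of edgeR 4.0.16 (R 4.3.3), with TMM scaling and robust dispersions, was applied to all 35 libraries in 1 model with terms for genotype and batch and 27 residual degrees of freedom. The filter (filterByExpr, minimum count 10, minimum total 15) left 12106 features, over which p-values were adjusted (Benjamini-Hochberg) and called under 0.05. On counts simulated for acd15.5 against wild-type (11899 genes), log2 changes of 2 were called in 100%, of 1 in 94%, of -1 in 86%, and 0.09% of unchanged genes were called. The changed genes had a mean over 1 CPM and no batch effect was simulated. Smaller changes and rarer genes were not simulated as changed. CPM used TMM-scaled library sizes, log2 CPM a prior count of 2, and levels per kb the exon length in RefSeq TAIR10.1, which also gave symbols, coordinates and sequences. Count ratios compare summed counts per unscaled library total, so they differ from ratios of mean CPM. They have exact 95% intervals that cover counting error only. Lists of SNARE partners, exocyst subunits, leaf defence, photosynthesis, sperm cell, vegetative cell and mutated genes were read by their calls. The labels do not pair SLN, ACD15.5 or ACD21.4 with a locus, so their identifiers rest on background knowledge.

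The members and lists were chosen with earlier results of these data known. Named were all 8 syntaxins, the 10 features most like SYP122, 5 neighbours on each side, called list genes (6 at most per list) and the mutated genes; genes named without a call were chosen after their values were seen. Alternatives were DESeq2 1.42.0 and its size factors, no filter or a stricter one (1 CPM in 5 libraries), no batch term, replicate numbers as a block, only the groups compared, single batches, each library left out, the 5 outlying libraries left out, a covariate for the share of reads outside features, a prior count of 0.5 and other likeness measures.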

Additional observations from a re-analysis of the deposited data

Results flagged for a closer look

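In 3 of the 35 combinations of a tested syntaxin and a genotype, 1 library lay far from the other 4 (Dixon's test at 95%, which flags about 1 group in 20 by chance). SYP122 in acd15.5 acd21.4 sln replicate 5 stood at 13.91 CPM against 9.64 to 10.5 CPM in the other 4 libraries. SYP124 in acd15.5 acd21.4 replicate 4 stood at 383.1 CPM against 444.6 to 454.9 CPM, and without that library SYP124 passed the test of any genotype difference (adjusted p = 0.0429, edgeR). SYP125 in acd15.5 replicate 1 stood at 228.8 CPM against 208.0 to 213.5 CPM.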

How the results depend on the processing

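Against wild-type, the 7 syntaxins other than SYP122 had 0 calls under all 11 other settings and in all 35 fits that left out 1 library. The main fit tested 4 of the 7. SYP123, SYP121 and SYP111, at no more than 0.457 CPM in any library, could be called only in the fit with no filter. Over these 47 fits the log2 differences of SYP131 lay between -0.16 and 0.03 and those of SYP132 between -0.21 and 0.18. For any genotype difference the number of calls was 0 in the main fit, 1 with DESeq2 (SYP124) and 0 to 1 with 1 library left out. For the 2 interactions it was 0, 1 with DESeq2, 1 with the replicate block in place of batch (SYP131, adjusted p = 0.0493) and 0 to 1 with 1 library left out. For batch it was 1, 2 with DESeq2 (SYP124 and SYP125), 0 with no filter (SYP125, adjusted p = 0.0585) and 1 to 1 with 1 library left out. The replicate numbers did not pair the libraries. Correlations were taken on log2 CPM after genotype and batch means were removed. Same-numbered libraries of different genotypes had correlations of -0.456 to 0.416 (median -0.012, 16 of 105 pairs over 0.1), and 5 of 35 libraries correlated best with their own number. The block changed no other call among the syntaxins.

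The fitted SYP122 log2 difference from wild-type stayed at 5.17 or more in 5 mutants under every setting of the fit. In batch 1 alone it was 5.17 in mbd5 mbd6, 6.17 in acd15.5, 6.10 in acd21.4, 6.42 in acd15.5 acd21.4, 5.87 in acd15.5 acd21.4 sln and -1.91 in sln, and in batch 2 alone 6.71, 7.37, 7.54, 7.64, 7.21 and 0.92. With 1 library left out it ran from 5.77 to 6.56 in mbd5 mbd6, 6.54 to 7.33 in acd15.5, 6.62 to 7.41 in acd21.4, 6.80 to 7.59 in acd15.5 acd21.4, 6.33 to 7.12 in acd15.5 acd21.4 sln and -0.26 to 0.53 in sln, with the extremes in the fits without wild-type replicates 2 and 3. Wild-type SYP122 rests on 7 counts, which limits the size of each ratio. A prior count of 0.5 in place of 2 moved the differences in mean log2 CPM, a separate quantity, from 5 to 6.002 in mbd5 mbd6, the lowest of the 5, and from 6.05 to 7.07 in acd15.5 acd21.4, the highest. Of the 10 features most like SYP122, 8 to 10 stayed with 1 library left out, 8 with no filter, 8 without the outlying libraries and 4 by Spearman's coefficient; the cause was not tested.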
